A study of Homo sapiens with 21 samples.

Results

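Neural cell adhesion molecules are surface proteins through which nerve and glial cells hold on to one another and to their surroundings. Of this class, 8 genes of 18374 with a symbol on the arrays are described here: NCAM1 and NCAM2, the L1 family genes L1CAM, NRCAM, CHL1 and NFASC, the contactin gene CNTN1, and LRRTM4. They were selected by name, with earlier results of these data known, and with the differences between each clone and the vector clone V22 in view. Those differences are therefore given as a description, and no p-value is printed for a gene of the 8 in them. Where a gene of the 8 is marked or counted as past a limma threshold, that is a description as well. Each gene had 1 probe set, so no choice among probe sets was needed.

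The RNA was from clones of U-87MG, a human cell line from a glioblastoma, that stably expressed either parkin or the vector alone. Parkin is a ubiquitin ligase involved in the removal of damaged mitochondria, and its own transcript was not analysed here. The 3 parkin clones PK7, PK19 and PK25 had 3 arrays each, all in the array series called the second here, together with 3 arrays of the vector clone V22. The vector clones V8, V17 and V22 had 3 arrays each in the first series. The series are read from the prefixes of the scanner file names, and their order is an assumption. Every group is a single clone, all seeded alike, and the labels do not say whether the arrays of a clone came from separate cultures. The spread between arrays may then be technical. The parkin clones share the second-series V22 arrays as their comparison, and V8 and V17 share those of the first series.

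Markers of the labelled cell type were looked up by their place among all probe sets, a rough guide, since probe sets differ in how brightly they report a given amount of RNA. All 9 measured markers of mesenchymal glioblastoma cells, LGALS1 and TIMP1 among them, lay among the brightest 30% of probe sets. Of 10 astrocyte and neural stem cell markers, AQP4, S100B and SLC1A2 lay among the dimmest 30%, and VIM and SLC1A3 among the brightest 30%. Of 13 neuronal markers, STMN2, ELAVL3, ELAVL4 and DCX lay among the dimmest 30%, and SNAP25 among the brightest 30%. The other markers of these 2 lists lay between. The summed intensity of the 13 neuronal markers was 781.1 to 1241.3 on parkin arrays and 795.3 to 998.7 on vector arrays. The median log2 intensity of an array was 6.21 to 6.37. An array gives no read depth, and precision is set by how many arrays and clones there are. Levels of different adhesion genes are not set against each other. The dimmest 30% of probe sets had means under a log2 intensity of 4.96, and the files give no background level. NCAM2 in PK7 and PK25, CHL1 in PK7 and PK19, NRCAM in all clones but PK7, and CNTN1 in all clones averaged under that level, and differences that involve them are differences between RMA values near the low end of the scale.

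NCAM1 and NCAM2 carry immunoglobulin domains and bind copies of themselves on the neighbouring cell, and NCAM1 is the main bearer of polysialic acid, a sugar chain that weakens this hold. The L1 family proteins have a longer extracellular part and are tied to the membrane skeleton by ankyrins. In neurons they guide axons, and neurofascin, the product of NFASC, gathers sodium channels at axon initial segments and nodes. Contactin-1 is held in the membrane by a lipid anchor and works with L1 family partners. LRRTM4 is of another build, a leucine-rich repeat protein of the receiving side of excitatory synapses that binds heparan sulfate proteoglycans.

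Among these genes NCAM1, NCAM2, CHL1 and LRRTM4 were lower than in V22 in 1 or more parkin clones by at least 2-fold, NRCAM was higher in PK7, and L1CAM, NFASC and CNTN1 stayed within 2-fold of V22 in every clone. CHL1 and LRRTM4 were also lower in the vector clone V8, whereas V17 lay within 2-fold of V22 for all 8 genes.

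The upstream sequences of the 3 genes that moved by at least 2-fold and have an entry in the RefSeq promoter table (GRCh38.p14) are shown to place the start sites beside the measured levels. Each is the 250 bases before the first start listed, 5′ to 3′ along the gene's strand, with CG dinucleotides in capitals. That of NCAM2 is chr21:21146912-21147161 on the + strand, that of NRCAM is chr7:108456437-108456686 on the - strand, and that of CHL1 is chr3:197639-197888 on the + strand.
NCAM2: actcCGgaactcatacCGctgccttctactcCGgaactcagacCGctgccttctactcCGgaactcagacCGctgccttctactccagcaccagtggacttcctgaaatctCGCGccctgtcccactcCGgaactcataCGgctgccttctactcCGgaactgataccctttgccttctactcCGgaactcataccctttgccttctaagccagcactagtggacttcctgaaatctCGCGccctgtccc
NRCAM: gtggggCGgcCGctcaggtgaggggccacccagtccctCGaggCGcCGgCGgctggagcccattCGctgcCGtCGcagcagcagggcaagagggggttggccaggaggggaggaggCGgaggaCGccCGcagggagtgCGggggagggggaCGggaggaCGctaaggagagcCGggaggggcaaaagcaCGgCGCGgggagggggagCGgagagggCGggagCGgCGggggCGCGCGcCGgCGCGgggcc
CHL1: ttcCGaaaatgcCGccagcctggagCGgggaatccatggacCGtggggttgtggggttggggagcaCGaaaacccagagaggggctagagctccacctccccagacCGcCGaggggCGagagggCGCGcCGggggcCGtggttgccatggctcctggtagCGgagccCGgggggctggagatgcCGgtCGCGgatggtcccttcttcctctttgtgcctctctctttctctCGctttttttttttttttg
The NCAM2 stretch holds 14 CG dinucleotides, that of NRCAM 29 and that of CHL1 18, where the median over all 35116 table entries is 11.0 for the same length. The NCAM2 stretch repeats the letters ACTCCGGAACT 6 times, a run chosen after the sequence was seen. Searched on both strands, it occurs in 0.0114% of all entries, and NCAM2 is the only entry with 4 or more copies. The letters GGGCGG, known as a GC box and searched on both strands, occur 2 times before NRCAM and not in the other 2 stretches, and in 42.6% of all entries. NRCAM and CHL1 have 3 starts in the table and NCAM2 has 1, which need not be the one in use. The start in use in these cells is thus not known for any of them. No measurement here bears on these sequences beyond the transcript level.

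**Figure D1:**
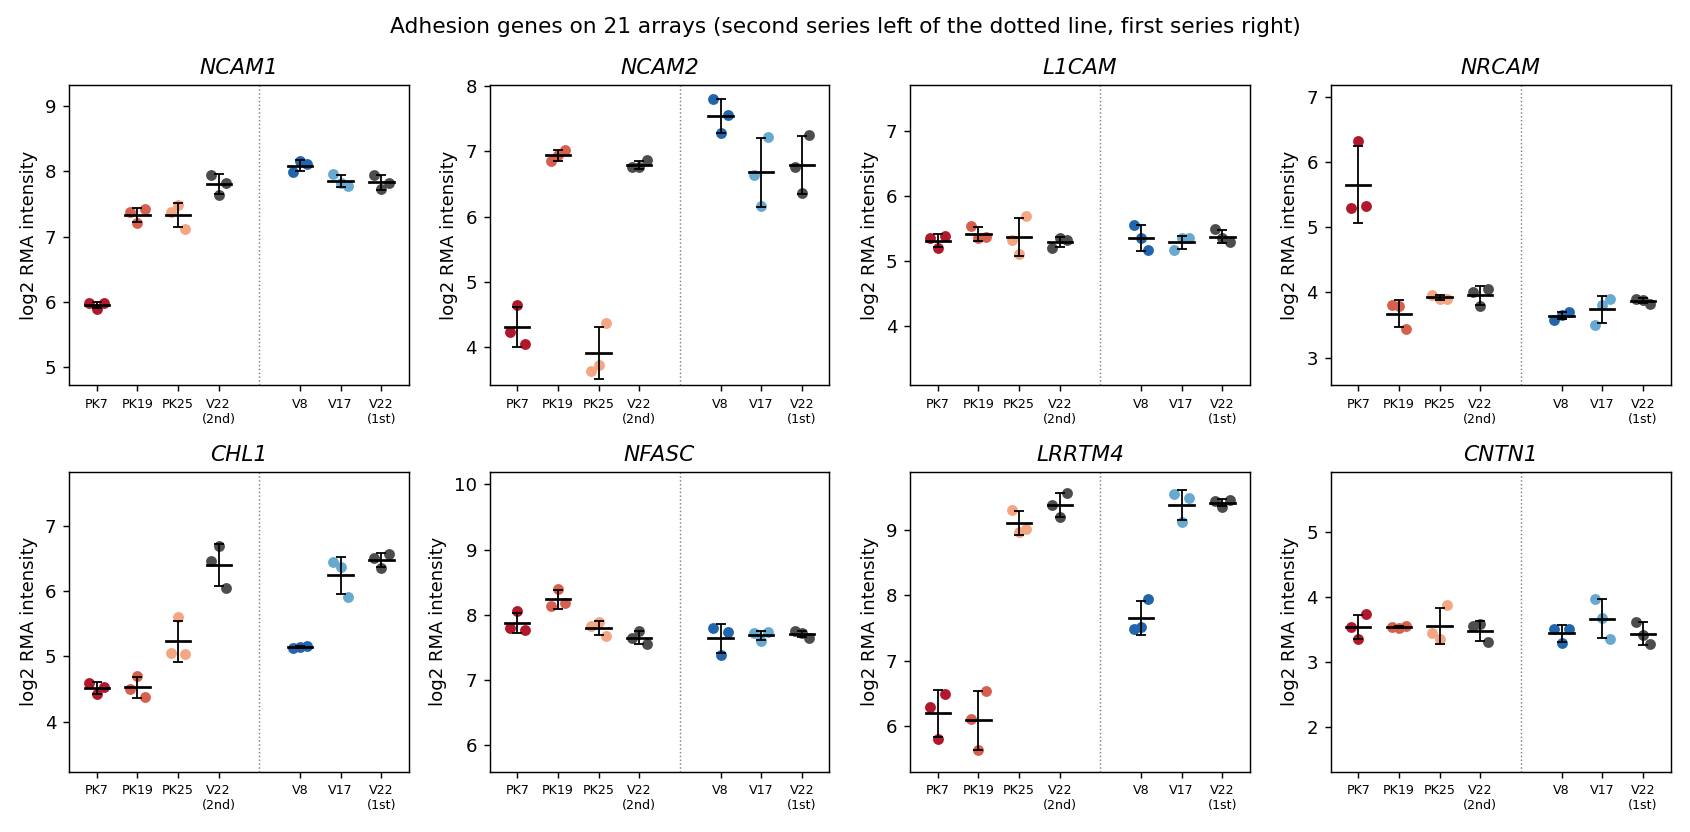
Log2 RMA intensity (vertical axes, each spanning the same range) of the 8 genes on every array, by clone; points are arrays, bars the mean and the SD of 3 arrays, and the dotted line separates the second series (left) from the first. The highest LRRTM4 array of PK7 and PK19 is at 6.53 and the lowest of V22 in their series at 9.21, while L1CAM spans 5.11 to 5.69 and CNTN1 3.28 to 3.96.

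The largest differences were those of LRRTM4. In PK7 its arrays were at 6.29, 5.79 and 6.49 and in PK19 at 6.10, 5.62 and 6.53, in PK25 at 9.32, 8.98 and 9.02, and in V22 of the same series at 9.39, 9.21 and 9.57. All arrays of PK7 and PK19 were thus far under those of V22, and the PK25 arrays overlapped with them. The log2 difference from V22 was -3.20 in PK7 (9.18-fold) and -3.30 in PK19 (9.88-fold), and -0.28 in PK25 (SE 0.20 each). The vector clone V8 had 7.49, 7.52 and 7.95, where V17 had 9.56, 9.13 and 9.49 and V22 of the first series had 9.45, 9.36 and 9.46. V8 therefore lay between, at -1.77 from V22 (3.41-fold), and V17 stood at -0.03. In rising order the clone means were 6.08 in PK19, 6.19 in PK7, 7.65 in V8, 9.10 in PK25, and 9.39 in both V17 and V22 of the second series, with V22 of the first at 9.42. The arrays of PK19 and PK7 overlapped, as did those of PK25, V17 and V22.

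CHL1, the close homolog of L1, was lower than V22 in all 3 parkin clones and in V8. PK7 had 4.60, 4.42 and 4.53, PK19 had 4.50, 4.70 and 4.37, PK25 had 5.06, 5.60 and 5.04, and V22 had 6.47, 6.69 and 6.05. No parkin array reached the lowest V22 array. The log2 difference was -1.89 in PK7, -1.88 in PK19 and -1.17 in PK25 (2.25-fold), with an SE of 0.17. In V8 the arrays were at 5.13, 5.14 and 5.16, against 6.51, 6.36 and 6.58 in V22 of the first series, a difference of -1.34 (2.53-fold). V17, at 6.44, 6.37 and 5.92, overlapped with V22 and differed by -0.24. CHL1 was thus low in parkin clones and in 1 vector clone, and the means of PK25 (5.23 ± 0.32, SD, n = 3) and V8 (5.14 ± 0.013, SD, n = 3) differed by less than the spread of PK25.

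NCAM2, the second NCAM gene, was low in PK7 and PK25 but not in PK19. PK7 had 4.24, 4.64 and 4.05, PK19 had 6.86, 6.95 and 7.02, PK25 had 3.64, 3.73 and 4.37, and V22 had 6.76, 6.76 and 6.87. The arrays of PK7 and PK25 overlapped with each other and lay more than 2 log2 units under V22, and those of PK19 overlapped with V22. The log2 differences were -2.49 in PK7, 0.14 in PK19 and -2.89 in PK25, with an SE of 0.24. V8 had the highest level, at 7.80, 7.28 and 7.56, against 6.76, 6.37 and 7.25 in V22 of the first series. That difference was 0.75, and the nearest arrays were only 0.035 apart. V17, at 6.64, 6.17 and 7.22, spread over the same range as V22. PK19 lay 3.03 above PK25 on the log2 scale, and the parkin clones thus differed among themselves, with PK19 at the level of V22.

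NCAM1 was lowest in PK7, at 5.98, 5.90 and 5.98, where V22 had 7.95, 7.65 and 7.82. The difference was -1.85 (3.61-fold, SE 0.11), and the arrays were 1.66 apart at their nearest. PK19, at 7.37, 7.21 and 7.42, and PK25, at 7.38, 7.49 and 7.12, also lay under every V22 array, each by -0.47 (1.39-fold). V8 had 7.99, 8.16 and 8.12, against 7.95, 7.72 and 7.82 in V22 of the first series (0.26, nearest arrays 0.047 apart), and V17 had 7.96, 7.83 and 7.78 (0.03). Of the genes with a difference of at least 2-fold, NCAM1 was the only one whose parkin clone means all lay under all vector clone means. Both NCAM genes were at least 2-fold lower than V22 in PK7 alone. PK25 had low NCAM2, while its NCAM1 level was lower than V22 by under 2-fold and close to that of PK19.

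NRCAM, an L1 family gene, went the other way. PK7 had 5.28, 6.33 and 5.33, PK19 had 3.80, 3.79 and 3.43, PK25 had 3.96, 3.90 and 3.90, and V22 had 4.01, 3.79 and 4.05. PK7 was the only clone above V22, by 1.69 on the log2 scale (SE 0.19), and the difference was 1.35 without its set 2 array, which was the highest, and 1.27 without V22 set 5 as well. PK19 differed by -0.28 and PK25 by -0.03, and both overlapped with V22. The first-series clones were at 3.58, 3.65 and 3.70 in V8, at 3.51, 3.80 and 3.90 in V17, and at 3.90, 3.89 and 3.82 in V22, and V8 lay under V22 with no overlap (-0.23). Its probe set was among the dimmest 30% of all by its mean over the 21 arrays, and 4 arrays shared a value of 3.90.

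NFASC was within 2-fold of V22 in every clone and highest in PK19. PK19 had 8.13, 8.40 and 8.19, PK7 had 7.80, 8.06 and 7.77, PK25 had 7.83, 7.88 and 7.67, and V22 had 7.64, 7.75 and 7.56. The PK19 arrays lay above all V22 arrays (0.59, SE 0.11), those of PK7 only just (0.23, nearest arrays 0.015 apart), and those of PK25 overlapped with V22 (0.15). In the first series V8 had 7.80, 7.38 and 7.74, V17 had 7.72, 7.60 and 7.73, and V22 had 7.75, 7.72 and 7.65, all overlapping.

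L1CAM and CNTN1 did not separate the clones. L1CAM lay between 5.11 and 5.69 on all 21 arrays, with clone differences from V22 of 0.02 in PK7, 0.12 in PK19, 0.08 in PK25, -0.02 in V8 and -0.08 in V17 (SE 0.13 each). On 7 arrays, 4 of the first and 3 of the second series, it had the same value of 5.35. CNTN1 lay between 3.28 and 3.96, its probe set was among the dimmest 30%, and its differences were 0.06 in PK7, 0.06 in PK19, 0.08 in PK25, 0.0031 in V8 and 0.23 in V17 (SE 0.15 each). The arrays of every clone overlapped with those of V22 in both genes. A low RMA value does not tell an absent transcript from a faint one, nor can fewer cells with a transcript be told from less of it per cell.

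**Figure D2:**
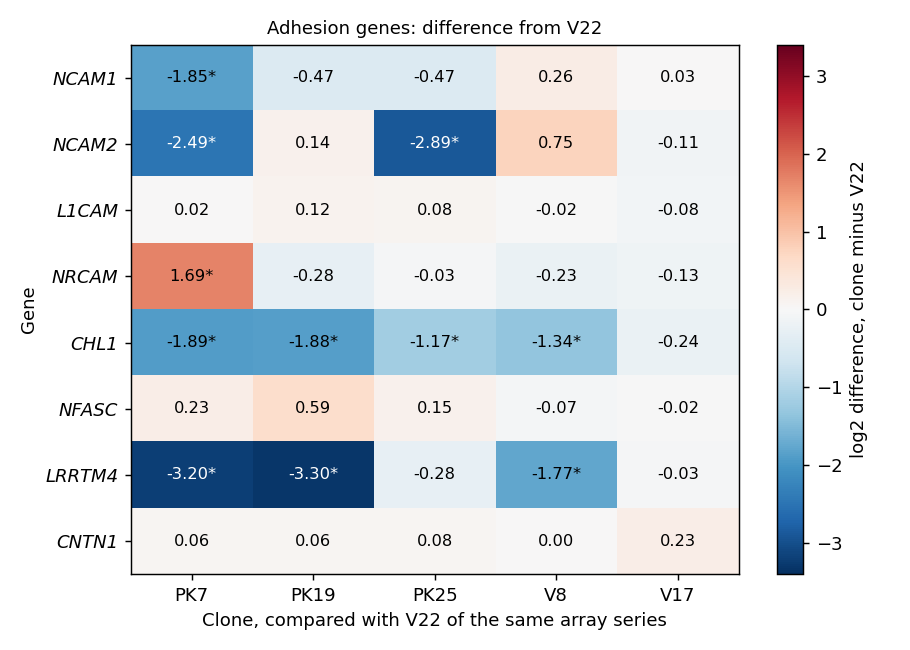
Log2 difference between each clone (columns) and V22 of the same array series for the 8 genes (rows), as colour and number; an asterisk marks a limma adjusted p under 0.05 together with at least 2-fold. PK7 has 5 marked genes, PK19, PK25 and V8 have 2 each and V17 has none. The genes were chosen with these differences in view, so the marks are a description.

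By the threshold used over all probe sets, a limma adjusted p under 0.05 and at least 2-fold, 5 of the 8 genes passed in PK7, where 2.3% of all probe sets passed. NRCAM was the 1 higher (1.44% of all probe sets were), and NCAM1, NCAM2, CHL1 and LRRTM4 were lower (0.865% were). In PK19 2 genes passed, CHL1 and LRRTM4, against 2.89% of probe sets, of which 1.62% were higher and 1.27% lower. In PK25 NCAM2 and CHL1 passed, against 0.193% of probe sets, with 0.0742% higher and 0.119% lower. In the vector clone V8 CHL1 and LRRTM4 passed, against 0.98% of probe sets, with 0.568% higher and 0.412% lower. In V17 none of the 8 passed with limma, 0 had an unadjusted p under 0.05, and 0.0% of all probe sets passed. Arrays of clone and V22 did not overlap for 6 of the 8 genes in PK7, where this held for 32.4% of all probe sets (15.5% higher, 16.9% lower). They did not for 4 in PK19, where it held for 31.2% (15.5% higher, 15.7% lower), and for 3 in PK25, where it held for 16.3% (7.74% higher, 8.51% lower). In V8 5 genes did not overlap, where 24.3% of all probe sets did not (12.2% higher, 12.2% lower), and in V17 0 genes, where 8.71% did not (5.68% higher, 3.03% lower). The genes were chosen with these differences known, so nothing is read from these counts. The median difference of the 8 genes was -0.91 in PK7, -0.11 in PK19, -0.16 in PK25, -0.04 in V8 and -0.06 in V17, beside medians over all probe sets between -0.0034 and 0.019.

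The parkin and vector groups were also compared over clone means, after the first series had been shifted per probe set by the V22 difference between the series. With limma, 0 of the 8 genes had an adjusted p under 0.05, and 4 had an unadjusted p under 0.05, where 0.00371% and 14.1% of all probe sets did. These clone means enter the differences known when the genes were chosen, so nothing is read from the counts of this comparison. NCAM1 averaged 6.87 ± 0.80 in parkin clones and 7.90 ± 0.14 in vector clones (SD, n = 3 each), a difference of -1.03 (SE 0.37), which was -0.57 without PK7. NCAM2 averaged 5.05 ± 1.65 in parkin clones and 7.01 ± 0.47 in vector clones (SD, n = 3 each), and LRRTM4 7.13 ± 1.71 in parkin clones and 8.79 ± 1.01 in vector clones (SD, n = 3 each). These differences of -1.96 and -1.66 were of the size of the spread between clones of 1 group. Without PK19 the NCAM2 difference was -2.90 and without PK25 the LRRTM4 difference was -2.65. CHL1 differed by -1.12 (SE 0.38), NFASC by 0.35 (SE 0.12) and L1CAM by 0.11 (SE 0.069). NRCAM differed by 0.58 (SE 0.49), a value that rested on PK7 and was -0.03 without it, and CNTN1 by -0.01. The clone means of the groups did not overlap for NCAM1, L1CAM and NFASC, 3 of 8 genes, where 23.1% of all probe sets had such means (12.3% higher, 10.9% lower). NCAM1 was the lower one of the 3. For L1CAM this rested on the shift between the series (-0.08, SE 0.13), since without it the means of 5.31 in PK7, 5.41 in PK19 and 5.37 in PK25 overlapped with those of 5.35 in V8, 5.29 in V17 and 5.37 in V22 of the first series.

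V22 was the clone measured in both series, and that contrast had no part in the choice of genes. Between the V22 arrays of the second and the first series the 8 genes differed by -0.08 to 0.08, with limma adjusted p of 0.913 to 0.997 over all probe sets (n = 3 arrays each). None passed, 0 had an unadjusted p under 0.05, and 0.00371% of all probe sets passed. The widest of these differences, -0.08 for L1CAM (SE 0.13), was far smaller than the differences of at least 2-fold above.

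Because neighbouring genes can move together in a clone, each gene was set beside its 50 nearest genes with a mean log2 value above 7. LRRTM4 on chromosome 2 stood below all 50 in PK7, PK19 and V8, where the neighbour medians were -0.17, -0.04 and -0.22. CHL1 on chromosome 3 was below all 50 in PK7, PK19, PK25 and V8, with neighbour medians of -0.04 to 0.04. NCAM2 on chromosome 21 was below all 50 in PK7 and PK25, with medians of -0.30 and -0.17. NCAM1 on chromosome 11 had 1 of its 50 neighbours below it in PK7 (median 0.01), and NRCAM on chromosome 7 was above all 50 there (median -0.27). Relative to the neighbour median, the LRRTM4 difference was -3.03 in PK7 and -3.26 in PK19, that of NCAM2 was -2.19 in PK7 and -2.71 in PK25, and that of NRCAM in PK7 was 1.97. Next to CHL1 on the chromosome lie the contactin genes CNTN6 and CNTN4, whose dim probe sets differed by -0.02 and -0.15 in PK7. The gene before NCAM2, TMPRSS15, differed by -1.54 in PK7 and by -0.0092 in PK25.

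**Figure D3:**
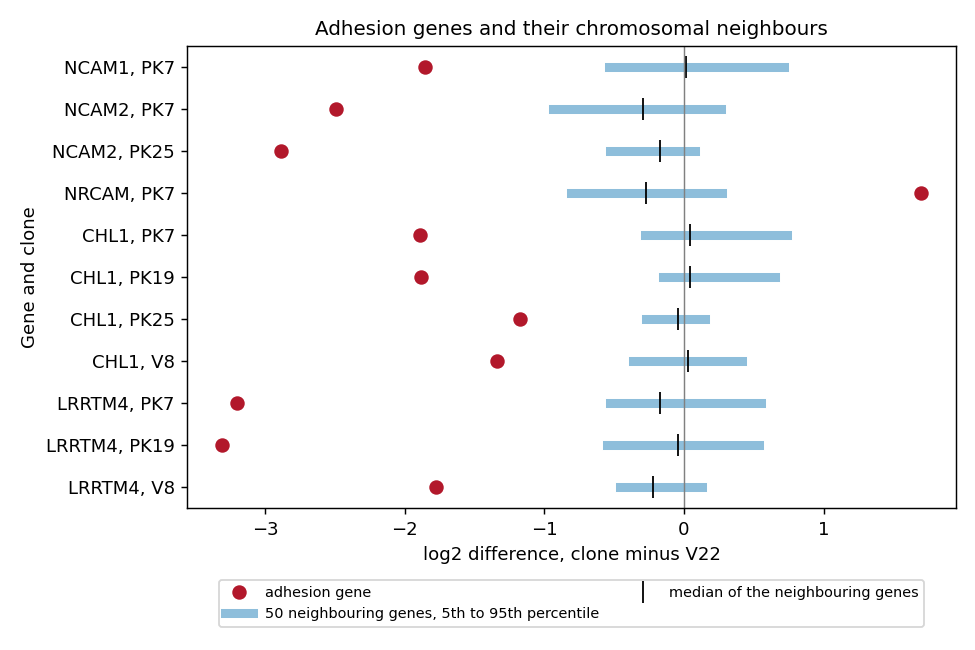
Log2 difference from V22 (horizontal axis) for each gene and clone past the threshold (red points), beside the 5th to 95th percentile (blue bars) and the median (black ticks) of the 50 nearest genes. Every red point lies outside its blue bar, and the NRCAM point of PK7 is the one on the right. Only differences past the threshold are shown, of genes chosen with them in view, so nothing is read from this.

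For each gene with a difference of at least 2-fold, the most similar profiles were sought among 1054 genes that also reached 2-fold in a clone, by Pearson's r over the 21 arrays after subtraction of the V22 mean of the series. The arrays of a clone share their cells, so r mostly compares 6 clones, and it is given as a description. LRRTM4 was most like HSD17B2, a steroid dehydrogenase gene (r = 0.987), EXOC2 of the exocyst (0.979) and FLOT1, a membrane raft gene (0.979). HSD17B2 differed by -3.39 in PK7, -3.37 in PK19, -0.05 in PK25, with -1.91 in V8. CHL1 was most like CCND1, cyclin D1 (0.958), ACTG2, a smooth muscle actin gene (0.956), and PLXNA4, a semaphorin receptor gene (0.947). PLXNA4 differed by -2.44 in PK7, -2.45 in PK19 and -1.93 in V8. NCAM1 was most like ANKRD7 (0.948), MCUB, of the mitochondrial calcium uniporter (0.935), and CEP170, a centrosome gene (0.926). NCAM2 was most like CEP15 (0.902), followed by APOBEC3B (0.737) and the histone gene H3C11 (0.729). CEP15 differed by -1.18 in PK7, 0.36 in PK19 and -1.02 in PK25. NRCAM was most like COL4A1, a basement membrane collagen gene (0.973), FAM234A (0.962) and ILDR2 (0.955), each high in PK7 by 1.03 to 1.21. Between the genes described here, r was 0.862 for CHL1 with LRRTM4, 0.699 for NCAM1 with NCAM2, 0.0995 for NCAM2 with LRRTM4 and -0.864 for NCAM1 with NRCAM. NRCAM also had negative values with NCAM2 (-0.560), LRRTM4 (-0.447) and CHL1 (-0.380). NRCAM differed from V22 by at least 2-fold in PK7 alone, so each r of NRCAM rests mostly on the 3 arrays of that clone. In PK19 LRRTM4 (-3.30) and CHL1 (-1.88) were low and NRCAM was not raised (-0.28).

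Related genes were followed in 6 lists with 126 measured genes. The lists were chosen by role but with earlier results of these data known, so their counts and p-values are a description. Of the 126 genes, 20 passed the threshold in at least 1 clone, a count with no matching share over all probe sets. In PK7 6 rose and 6 fell, 9.52% of the list genes beside 2.3% of all probe sets. In PK19 7 rose and 7 fell, 11.1% beside 2.89%, and in PK25 2 fell, 1.59% beside 0.193%. In V8 1 rose and 3 fell, 3.17% beside 0.98%, and in V17 none passed with limma, beside 0.0%. These shares over all probe sets are the background of the counts per list that follow. FLRT2, LRFN5, ICAM1, MCAM, PTPRS and SDC3 passed the same way in both PK7 and PK19. The lists hold genes of many levels, and all comparisons of the parkin clones share the V22 arrays.

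Of 32 other immunoglobulin adhesion genes, including 5 further contactin genes, 4 rose and 1 fell in PK7, 4 rose and 2 fell in PK19, 1 fell in PK25 and 2 fell in V8. LSAMP, which encodes the limbic system-associated membrane protein, had 5.50, 5.73 and 5.62 in PK19 and 6.61, 6.69 and 6.88 in PK25, against 8.05, 7.85 and 7.96 in V22. It fell by 2.33 on the log2 scale in PK19 (limma adjusted p = 2.79e-11) and by 1.23 in PK25 (adjusted p = 1.17e-05), and differed by -2.36 in V8 (adjusted p = 3.05e-10), with no overlap of arrays. In PK7 its difference of -0.58 was under 2-fold (limma adjusted p = 0.00178), and it was -0.96 against all 6 V22 arrays. LSAMP itself moved between the series in V22, with means of 7.95 in the second and 8.72 in the first. DCC, a receptor for the guidance factor netrin, had 7.82, 8.28 and 7.82 in PK19, against 5.09, 4.86 and 4.95 in V22. It rose by 3.00 in PK19 (8.00-fold, limma adjusted p = 2.76e-11), and its differences in the other clones lay between -0.21 and 0.10. The V22 mean of DCC, 4.97, was close to the level of 4.96 that bounds the dimmest 30% of probe sets. ICAM1, the leukocyte adhesion ligand, rose by 2.10 in PK7 and 1.96 in PK19. MCAM rose in PK7 (1.17) and PK19 (1.56) and fell by 1.07 in V8, a call that was lost without V8 set 2 (-0.97), without the set 2 arrays and V22 set 5 (-0.95) and against all 6 V22 arrays (-0.999). NECTIN3 (1.10) and JAM2 (1.03) also rose in PK7, where NEGR1 fell by 1.14, and in PK19 CADM1 rose by 1.04 and NEO1 fell by 1.01. The contactin genes CNTN2 to CNTN6 passed in no clone, with differences of -0.26 to 0.26.

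Among 31 genes of leucine-rich repeat and neurexin-neuroligin adhesion at synapses, the class LRRTM4 belongs to, 1 rose and 3 fell in PK7, 2 rose and 2 fell in PK19, 1 fell in PK25, and 1 rose and 1 fell in V8. LRFN5, another synaptic leucine-rich repeat gene, had 6.04, 5.91 and 6.21 in PK7, 6.15, 6.04 and 5.55 in PK19 and 5.57, 6.88 and 6.26 in PK25, against 7.98, 8.69 and 8.18 in V22. It fell in all 3 parkin clones and in V8, with log2 differences of -2.23 in PK7, -2.37 in PK19, -2.05 in PK25, with -2.215 in V8 (limma adjusted p of 9.17e-07 to 0.0001685). In the first series V17 had 9.20, 8.87 and 9.11, against 9.16, 8.75 and 9.08 in V22 (0.06). LRFN5 itself differed by -0.72 between the V22 arrays of the second and the first series. FLRT2, a ligand of UNC5 and latrophilin receptors, rose in PK7, PK19 and V8. It had 8.55, 8.74 and 8.61 in PK7 and 8.66, 9.02 and 8.83 in PK19, against 6.15, 6.22 and 6.21 in V22, and 8.32, 8.89 and 8.62 in V8, against 6.20, 6.28 and 5.97 in V22 of the first series. The rises were 2.44, 2.64 and 2.46, and the PK25 difference of 0.95 was under 2-fold, though it was 1.07 without PK25 set 1 and 1.16 without PK25 set 3, and both fits called it. PTPRS, a receptor phosphatase that binds heparan sulfate proteoglycans, fell by 1.03 in PK7 and 1.35 in PK19. The PK7 call was lost without PK7 set 1 (-0.96), PK7 set 3 (-0.90) or V22 set 5 (-0.93). SLITRK2 rose by 1.24 in PK19 and FLRT3 fell by 1.14 in PK7.

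**Figure D4:**
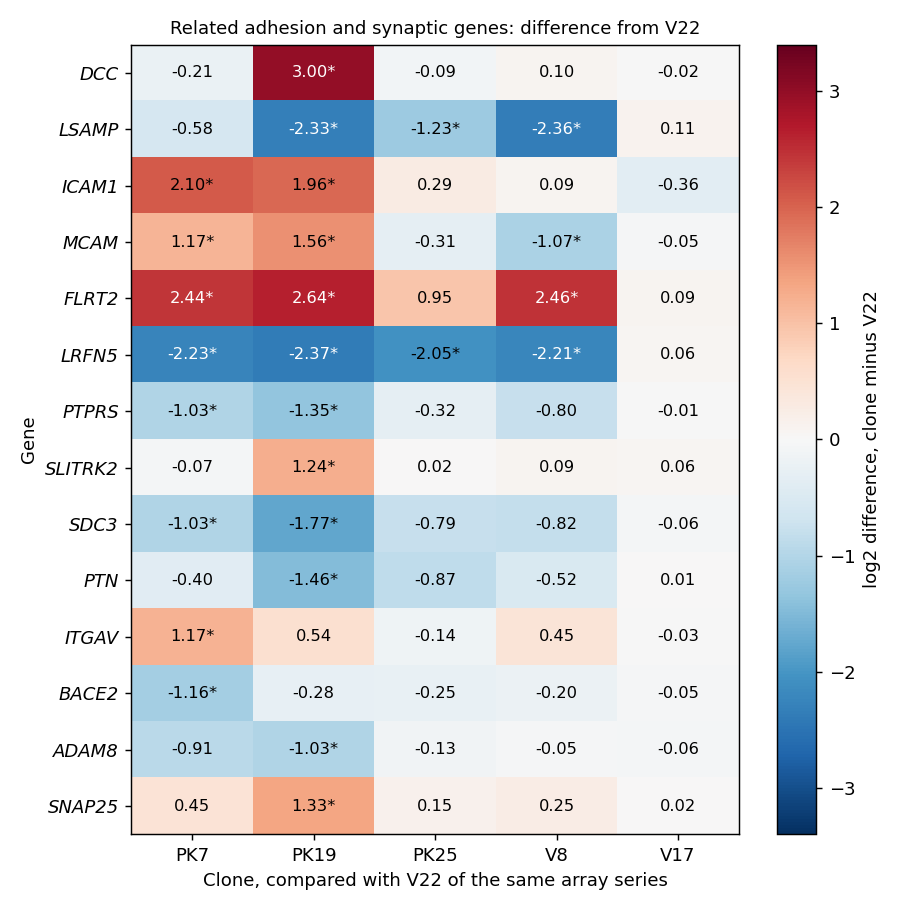
Log2 difference between each clone (columns) and V22 of the same array series for the 14 related genes with the largest differences in their lists (rows), as colour and number; an asterisk marks a limma adjusted p under 0.05 together with at least 2-fold. FLRT2 is marked high in PK7, PK19 and V8, LRFN5 is marked low in these and in PK25, and DCC is marked high in PK19 alone.

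Of 19 ligands and extracellular partners, 1 rose and 1 fell in PK7 and 2 fell in PK19. SDC3, a heparan sulfate proteoglycan gene, had 7.04, 6.86 and 6.92 in PK7 and 6.09, 6.27 and 6.23 in PK19, against 8.00, 7.92 and 7.99 in V22. It fell by 1.03 in PK7 and 1.77 in PK19 (limma adjusted p = 9.67e-07 and 2.90e-10), and its differences of -0.79 in PK25, with -0.82 in V8 were under 2-fold. The PK7 call was lost without PK7 set 2 (-0.99). PTN, the growth factor pleiotrophin, fell by 1.46 in PK19, and ITGAV, an integrin chain that binds L1, rose by 1.17 in PK7. None of 21 cytoplasmic partners and signalling genes passed with limma in any clone. Of 8 measured sheddase, polysialyltransferase and related genes, BACE2 fell by 1.16 in PK7, and ADAM8, a protease that cleaves CHL1 in mice, fell by 1.03 in PK19, a call lost without PK19 set 1 (-0.91). In PK7 ADAM8 differed by -0.91, and it was called there without PK7 set 3 (-1.02) and against all 6 V22 arrays (-1.11). ADAM8 itself moved between the series in V22, with means of 7.648 in the second and 8.035 in the first. The polysialyltransferase gene ST8SIA4 differed by -0.63 in PK7, -0.40 in PK19, -0.25 in PK25, with -0.37 in V8, and ADAM10, which sheds L1 family proteins, by 0.79 in PK7.

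Of 15 genes of neuron-restrictive repression and its targets, SNAP25 alone passed, with a rise of 1.33 in PK19 (limma adjusted p = 6.26e-06). REST, the repressor itself, differed by 0.44 in PK7, -0.24 in PK19, 0.0052 in PK25, with 0.88 in V8. Of the 13 neuronal markers SNAP25 and SYT1 (1.48) rose in PK19, and none passed in PK7, PK25, V8 or V17. Of 10 astrocyte and neural stem cell markers 1 fell in PK25 and in V8, SLC1A3 (-1.12 and -1.27), and 1 in PK19, SOX2 (-1.09). SOX2 differed by -0.97 in PK7 and in V8 without passing, and the medians of the 10 markers lay between -0.20 (PK19) and 0.01 (PK25) over the 5 clones. Of 10 oligodendrocyte lineage markers 1 fell in PK7 and in PK19, PDGFRA (-1.35 and -1.54), while 7 of the 10 were above 0 in PK7 and 3 in PK19. Of 9 mesenchymal glioblastoma markers 1 fell, COL1A1 in PK19 (-1.37), and none passed with limma in the other clones. The part of these markers in the levels of the adhesion genes was not tested.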

How the data were processed

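RNA of 21 cell samples was hybridised to Affymetrix GeneChip arrays. The authors deposited 1 intensity per probe set on a linear scale (26947 probe sets), made with RMA per the submitters' processing notes, without a version; whether the series were normalized together is not stated, and 20.7% of probe sets hold an identical value in both series. Intensities were turned into log2 values. Symbols came from the platform annotation, updated by gene ID to RefSeq (GRCh38.p14): 19305 probe sets had 1 symbol, 1750 several and 5892 none.

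The members and lists were chosen with earlier results of these data known. limma 3.58.1 in R 4.3.3 (lmFit, eBayes) was fitted to all 21 arrays with 7 clone-by-series groups, and clones were contrasted with V22 of their series. Probe sets with a Benjamini-Hochberg adjusted p under 0.05 and at least 2-fold were called. Parkin and vector groups were compared over 6 clone means. The fit was tested on simulated data. Named were all 8 genes, the up to 4 called genes with the largest difference per list, and the 3 most similar genes of each gene at 2-fold. Other genes were named after their values were seen. Per gene the brightest probe set was used. The main fit did not take the set numbers to pair the arrays. Same-numbered arrays of the first series correlated at 0.0591 to 0.216 in their deviations from clone means. Arrays with different numbers correlated at -0.141 to 0.0533, all lower, so the numbers may mark blocks in that series. The V8 and V17 contrasts of the main fit leave such blocks out, and a fit with them is given below. Same-numbered parkin arrays correlated at -0.0917 to 0.381 and the others at -0.365 to 0.323. Alternatives covered normalization, dim probe sets, variance, arrays left out and the V22 arrays used.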

Additional observations from a re-analysis of the deposited data

Results flagged for a closer look

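In 3 instances parkin clones lay on opposite sides of the V22 mean with every array. For NCAM2 the PK7 difference from V22 minus that of PK19 was -2.63 on the log2 scale, and the PK19 difference minus that of PK25 was 3.03. For NRCAM the PK7 difference minus that of PK19 was 1.97. The smaller side was 0.14 for NCAM2 in PK19 and -0.28 for NRCAM in PK19, both with arrays that overlapped with V22. None of these differences between clones was tested, because the genes were chosen with them known.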

How the results depend on the processing

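All 11 differences of at least 2-fold among the 8 genes kept their direction and stayed above 2-fold in all 144 recomputed values. The smallest of these was 1.03 in size on the log2 scale, and no result changed sign past the threshold. The count of the 8 genes called was 4 to 5 in PK7, since NRCAM is removed with the dimmest 30% of probe sets. Among related genes, the count called higher in V8 was 2 in place of 1 against all 6 V22 arrays and 1 to 2 with an array left out, and that in PK25 was 0 to 1 with an array left out. Over all alternatives, the count called higher was 5 to 6 in PK7 and 6 to 8 in PK19. The count called lower was 5 to 7 in PK7, 6 to 7 in PK19, and 2 to 3 in PK25 and in V8. In the first series, with set as a replicate block, 2 of the 8 genes were called in V8 and 0 in V17, as without it. With arrays of sets 1 to 3 as observations, the set number as a replicate block and no adjustment for the series, 5 of the 8 genes were called between parkin and vector arrays in place of 0, a fit that counts arrays of a clone as independent. No paired analysis of parkin clones with V22 was possible because their set numbers differ. The mean over several probe sets was not run, as each gene has 1. Low signal limits NRCAM, CNTN1, NCAM2 in PK7 and PK25, and CHL1 in PK7 and PK19. Among related genes it also limits SLITRK2, and DCC outside PK19.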

Other observations

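The vector clones also differed among themselves in these genes. CHL1, LRRTM4 and LRFN5 were at least 2-fold lower than V22 in V8, as they were in PK7 and PK19, and FLRT2 was at least 2-fold higher in all 3 of these clones. In PK25 CHL1 and LRFN5 were at least 2-fold lower as well, and LRRTM4 was not. The LRRTM4 difference between V8 and V17 (-1.74) was about the size of that between the parkin and vector groups (-1.66), and for CHL1 the values were -1.10 and -1.12. V8 is itself in the vector group, so its low level makes these group differences smaller. Without V8 the CHL1 group difference was -1.53. TTC12, which lies beside NCAM1, differed by -0.14 in PK7, where NCAM1 was lowest, and by -1.13 in PK19.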
